A study of Mus musculus with 4 samples.

Results

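The lipolysis and glycerol handling genes are 10 genes that encode triglyceride lipases, their regulators, and proteins that move glycerol or make and use glycerol 3-phosphate. They are Pnpla2, Lipe, Mgll, Abhd5, G0s2, Aqp7, Gk, Gpd1, Gpd2 and Pck1, and their members were taken as all probe sets that the array annotation pairs with exactly 1 of these symbols. A probe set is a group of short probes that read 1 transcript region. The rule gave 21 probe sets of the 45037 measured, for 9 of the 10 genes and out of 17097 genes in all. Gk, the glycerol kinase gene, has no probe set with its symbol in the annotation used here and was not analysed here.

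RNA was measured in mouse brown adipocytes after 6 days of differentiation on Affymetrix mouse PM strip arrays, with 250 ng of total RNA labelled per array. There were 2 arrays of cells expressing a scrambled control short hairpin RNA (shRNA) and 2 arrays of cells expressing an shRNA against Blnc1, a long noncoding RNA of brown fat. Both groups carry an shRNA, the labels name 1 shRNA against Blnc1, and the vector and the origin of the cells are not given in the sources used here. The labels name biological replicates without saying whether they came from separate cultures, so p-values measure the spread between these arrays, which may be technical. The target Blnc1 has no named probe set, and its own level was not analysed here.

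Lipolysis strips a triglyceride of its fatty acids in sequence. Adipose triglyceride lipase (Pnpla2) starts it, hormone-sensitive lipase (Lipe) acts next on diglycerides, and monoglyceride lipase (Mgll) frees the last fatty acid and leaves glycerol. Abhd5 (CGI-58) activates adipose triglyceride lipase and G0s2 inhibits it. In brown fat the released fatty acids fuel and activate heat production. Glycerol leaves the cell through the channel Aqp7 or is phosphorylated by glycerol kinase. Cytosolic Gpd1 interconverts dihydroxyacetone phosphate and glycerol 3-phosphate, and mitochondrial Gpd2 takes electrons from glycerol 3-phosphate. Together they form the glycerol phosphate shuttle that carries reducing power into mitochondria. Cytosolic phosphoenolpyruvate carboxykinase (Pck1) feeds the same pool from pyruvate and lactate, a route called glyceroneogenesis.

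The windows of 250 bases before the annotated start sites of Pnpla2, G0s2 and Gpd2 are shown because these members held called changes. Gpd2 is shown at both of its annotated starts. Which start the transcripts read by each Gpd2 probe set use was not tested. Sequences are from RefSeq (GRCm38.p6), read 5′ to 3′ on the gene's strand, and capitals mark CpG dinucleotides.
Pnpla2, chr7:141454938-141455187, plus strand: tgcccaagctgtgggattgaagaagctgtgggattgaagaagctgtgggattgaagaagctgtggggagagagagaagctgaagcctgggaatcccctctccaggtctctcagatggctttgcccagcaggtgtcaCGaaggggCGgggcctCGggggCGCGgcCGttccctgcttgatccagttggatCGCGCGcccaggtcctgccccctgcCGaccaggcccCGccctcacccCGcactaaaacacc
G0s2, chr1:193273189-193273438, minus strand: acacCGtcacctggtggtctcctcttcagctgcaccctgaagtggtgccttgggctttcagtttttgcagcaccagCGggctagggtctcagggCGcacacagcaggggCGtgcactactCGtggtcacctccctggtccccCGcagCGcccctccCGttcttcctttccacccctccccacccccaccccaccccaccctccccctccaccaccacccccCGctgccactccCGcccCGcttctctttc
Gpd2 at the start nearer the 5′ end, chr2:57237428-57237677, plus strand: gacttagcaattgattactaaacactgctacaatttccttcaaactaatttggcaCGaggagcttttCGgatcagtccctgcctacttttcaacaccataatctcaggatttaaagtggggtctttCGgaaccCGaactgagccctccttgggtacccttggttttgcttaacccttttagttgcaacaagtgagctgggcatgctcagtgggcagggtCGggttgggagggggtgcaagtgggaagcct
Gpd2 at the other start, chr2:57238132-57238381, plus strand: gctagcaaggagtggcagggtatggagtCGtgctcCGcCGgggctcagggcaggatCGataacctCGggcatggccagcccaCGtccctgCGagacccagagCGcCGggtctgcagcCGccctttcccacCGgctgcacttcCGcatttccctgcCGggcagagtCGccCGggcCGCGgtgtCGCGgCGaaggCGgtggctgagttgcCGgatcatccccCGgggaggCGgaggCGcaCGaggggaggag

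The 2 Gpd2 windows differ in composition, with 5 CpG dinucleotides and 48.8% G or C at the start nearer the 5′ end and 26 CpG dinucleotides and 71.2% G or C at the other. Those of Pnpla2 and G0s2 hold 12 and 11. Windows were listed for 9 of the 10 genes, 13 windows in all, and Gpd1 has none there. The cAMP response element TGACGTCA was in 0 of the 13 windows and in 1.55% of 32851 windows of all genes, counting both strands. Its core ACGTCA, which lies within that element, was in 1 member window, that of Pck1, 91 bases before the start, against 6.47% of all windows. The exact consensus of the direct repeat element bound by PPAR and RXR was in 0 member windows and 0.0335% of all. Variants of that consensus were not searched for, so the count does not show that member windows lack such an element. TGTTCT, one arm of the glucocorticoid response element, was in 3 member windows (Mgll, Aqp7 and Gk) and 16.1% of all. These are matches of letters and were not tested as binding sites.

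Values are log2 expression values as deposited by the authors. The background log2 value, 2.55, is the highest reading of antigenomic control probe sets on any array. Arrays of 1 group correlated across probe sets at r = 0.994 and 0.996, and arrays of different groups at 0.982 to 0.984. The general adipocyte markers gave a summed linear level of 16716 and 16831 in scramble and 17509 to 17902 in knockdown, with all 7 measured markers above background on every array and 1 of 7 called. Of 7 measured brown adipocyte markers 5 were lower in knockdown, with sums of 2192 and 2329 in scramble and 1205 and 1294 in knockdown, and Ucp1, the uncoupling protein of brown fat, among them. Of 7 preadipocyte or fibroblast markers 5 were higher, with sums of 1331 and 1381 against 2223 and 2321. Most of each of these sums is Col3a1 alone, at log2 values of 10.32 and 10.26 in scramble and 11.02 and 10.95 in knockdown. Hepatocyte markers were lower for 10 of 17, with sums of 441 and 527 against 260 and 289. Macrophage markers (1 of 5 called, higher) summed to 47.8 and 48.3 in scramble and 51.1 and 53.4 in knockdown, and endothelial markers (1 of 4, higher) to 33.1 and 33.7 against 32.8 and 35.7. Of 6 skeletal muscle markers 0 were called, with sums of 41.5 to 42.7 over the arrays. For Actb, the 3′ control probe set exceeded the 5′ one by a log2 value that grows as RNA breaks, and this was 0.99 and 1.15 in scramble and 1.77 and 1.88 in knockdown. The 18S ribosomal RNA control read 5.13 and 4.43 in scramble and 6.64 and 7.01 in knockdown. Probe sets above background were 62.8% and 63% in scramble and 60.4% and 60.3% in knockdown. In such bulk samples, fewer cells of a type and less RNA per cell cannot be told apart, and the part of these differences in the results below was not tested.

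With each gene read by its probe set of highest mean, Gpd1 and G0s2 were higher on the Blnc1 knockdown arrays and Pnpla2 was lower, and the other 6 measured genes were not called. Gpd1 rose 1.81-fold, G0s2 rose 1.54-fold and Pnpla2 fell 1.38-fold. Called means an adjusted p under 0.05 in limma, with Benjamini-Hochberg adjustment over all genes, by which 18.5% of all genes tested were called (11.4% higher and 7.18% lower). Among genes above background on all 4 arrays, which 8 of the 9 members are, 24.7% were called. The median log2 fold change of the 9 genes was -0.11, against -0.04 for all genes, but that middle value is the one of Pck1, which was above background on 0 arrays. Its neighbours in order are Abhd5 at -0.21 and Gpd2 at 0.25, so the median describes no common direction. The groups did not overlap for any of the 9, and they did not overlap for 62.6% of all genes, so this says little by itself. Without knockdown replicate 1 or knockdown replicate 2, Gpd1 was the 1 member gene called.

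**Figure D1:**
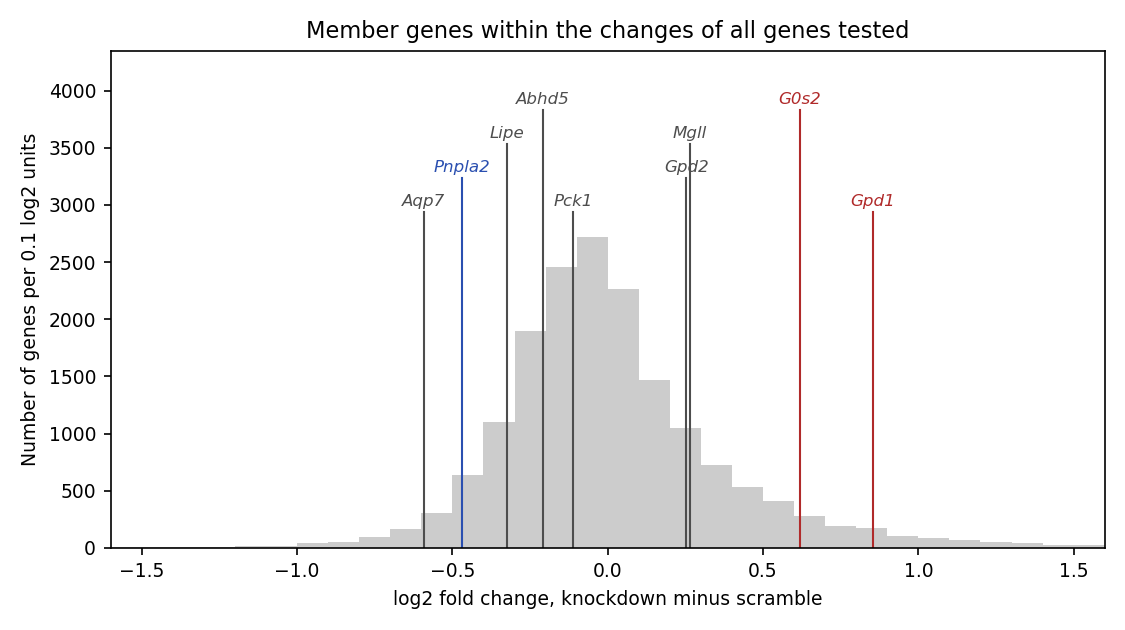
The grey bars count genes by log2 fold change, knockdown minus scramble, in steps of 0.1 (genes beyond the ends of the axis are not drawn), and the vertical lines place the 9 measured member genes (red, called higher; blue, called lower; dark grey, not called). Gpd1 at 0.85 and G0s2 at 0.62 lie in the right tail, and Pnpla2 at -0.47 and Aqp7 at -0.59 in the left.

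Among the lipases, Pnpla2, which encodes the enzyme of the first step, read 3.47 and 3.35 in scramble and 2.99 and 2.88 in knockdown. Both scramble arrays were above both knockdown arrays, and all 4 readings lay within 1 log2 unit of the background value of 2.55. The log2 fold change was -0.47 (SE 0.11, n = 2 per group, limma adjusted p = 0.0255), a 1.38-fold fall. This probe set, 1428591_PM_at, is the one paired with Pnpla2 here, so the call rests on 1 probe set near background. Other probe sets that may read Pnpla2 without carrying its symbol in the annotation were not used, and what they would add to this call is not known here. The adjusted p was 0.0688 without scramble replicate 1, 0.0927 without knockdown replicate 1 and 0.168 without knockdown replicate 2.

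Lipe, which encodes hormone-sensitive lipase, read 7.88 on both scramble arrays and 7.56 on both knockdown arrays. The replicates lay close together and the groups apart, yet the change of -0.33 (SE 0.10) was not called, with an adjusted p of 0.0605 by limma. Quantile normalization gave -0.39 and a call (adjusted p = 0.0364), while median centring gave -0.26 (0.113) and the mean of both probe sets -0.18 (0.164), neither called. Its other probe set, 1432180_PM_at, was below background on every array.

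Mgll, the monoglyceride lipase gene, had 4 probe sets, all above background and none of them called. The one of highest mean, 1426785_PM_s_at, read 8.24 and 8.13 in scramble and 8.50 and 8.40 in knockdown, a log2 fold change of 0.26 (SE 0.10, limma adjusted p = 0.129). Probe set 1450391_PM_a_at had a change of 0.41 in the same direction. In the opposite direction, 1453836_PM_a_at read 7.46 and 7.32 in scramble and 7.05 and 7.01 in knockdown, a change of -0.36. The fourth, 1431331_PM_at, had a change of -0.17. Averaging all of its probe sets gave Mgll a log2 fold change of 0.04 (adjusted p = 0.804).

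The regulators of adipose triglyceride lipase came out differently. G0s2, its inhibitor, read 9.77 and 9.79 in scramble and 10.39 and 10.41 in knockdown. All knockdown values were above all scramble values, and replicates differed by far less than the groups did. The log2 fold change was 0.62 (SE 0.10, n = 2 per group, limma adjusted p = 0.00731), or 1.54-fold with a 95% confidence interval of 1.31 to 1.80. The adjusted p was 0.0516 and 0.062 without knockdown replicates 1 and 2, with log2 fold changes of 0.63 and 0.61.

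Abhd5, the activator, read 8.53 and 8.41 in scramble and 8.30 and 8.22 in knockdown at probe set 1417566_PM_at. Its log2 fold change of -0.21 was not called (adjusted p = 0.212), and the interval of -0.46 to 0.04 takes in 0. The second probe set read 8.10 and 7.74 in scramble and 8.18 and 7.77 in knockdown. There the replicates were farther apart than the groups, with a change of 0.05.

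**Figure D2:**
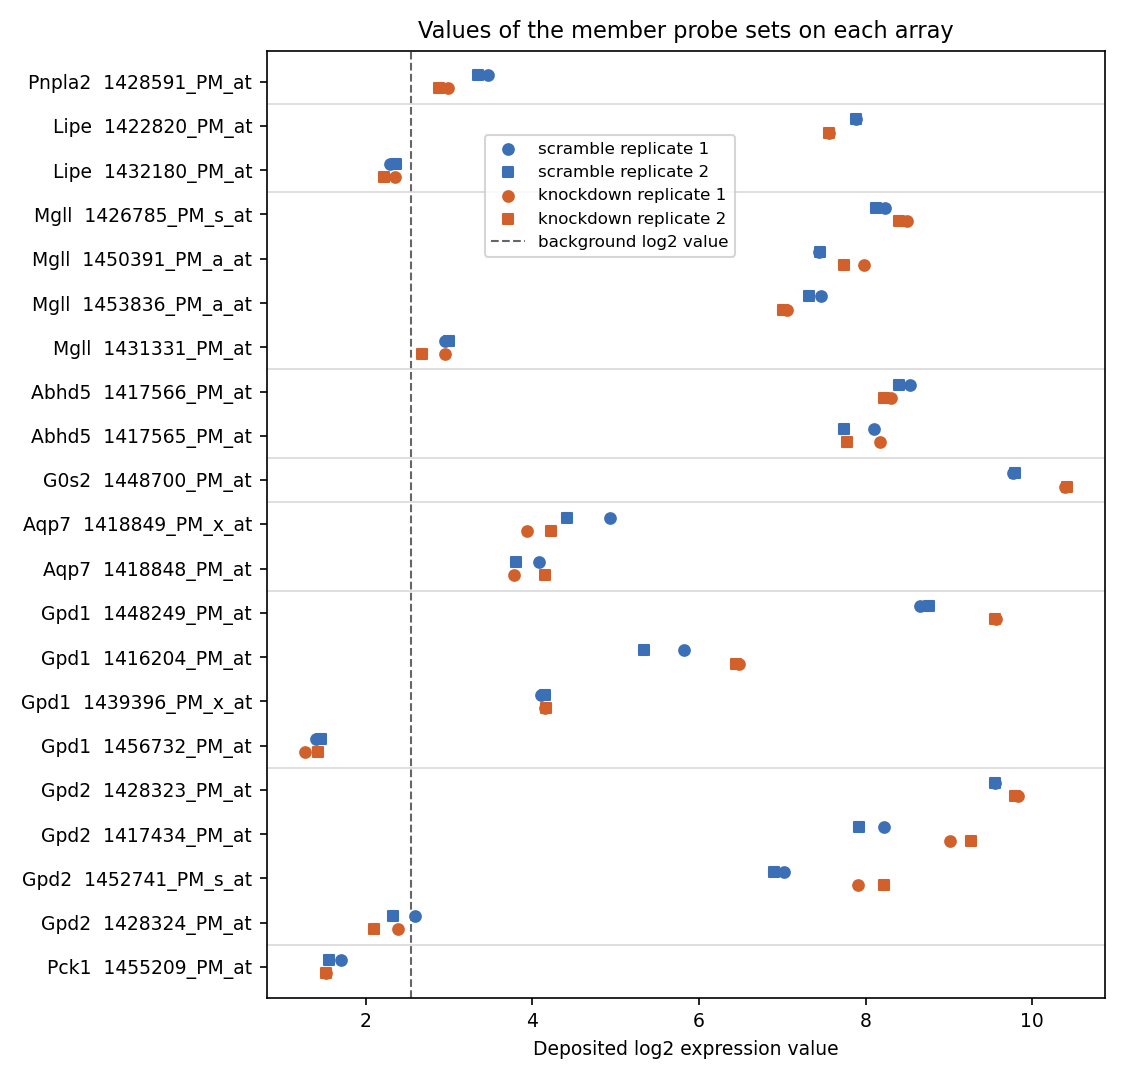
Each line is 1 of the 21 member probe sets, with its deposited log2 value on the 2 scramble arrays (blue) and the 2 knockdown arrays (orange), circles for replicate 1 and squares for replicate 2. The dashed line is the background log2 value of 2.55; Pck1 and a probe set each of Lipe and Gpd1 lie below it on every array, and the knockdown points of G0s2 lie to the right of the scramble points.

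Of the glycerol handling genes, Gpd1, the cytosolic glycerol 3-phosphate dehydrogenase gene, had the largest called change when each gene was read by its probe set of highest mean. Its probe set 1448249_PM_at read 8.66 and 8.76 in scramble and 9.57 and 9.56 in knockdown. The groups did not overlap, and the log2 fold change was 0.85 (SE 0.10, n = 2 per group, limma adjusted p = 0.00263), or 1.81-fold with a 95% interval of 1.53 to 2.13. Of all genes, 4.01% had a larger change in either direction. Gpd1 was called in all 11 alternatives run, with log2 fold changes of 0.42 to 0.92. The 0.42 is the mean of its 4 probe sets, of which 1 was below background.

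A second Gpd1 probe set, 1416204_PM_at, read 5.82 and 5.34 in scramble and 6.47 and 6.44 in knockdown, a log2 fold change of 0.88. It was called when every probe set was tested on its own (adjusted p = 0.0153 by limma over all probe sets), and its adjusted p was 0.0725 and 0.0739 without knockdown replicates 1 and 2. The third, 1439396_PM_x_at, read 4.11 and 4.15 in scramble and 4.15 and 4.16 in knockdown, with overlapping groups and a change of 0.03. The suffix x marks probes that can bind other transcripts. The fourth, 1456732_PM_at, was below background on every array.

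Gpd2 encodes the mitochondrial enzyme that takes electrons from glycerol 3-phosphate. Its probe set of highest mean, 1428323_PM_at, read 9.55 and 9.56 in scramble and 9.83 and 9.79 in knockdown, a log2 fold change of 0.25 that was not called (SE 0.10, limma adjusted p = 0.122). At probe set 1417434_PM_at the scramble arrays read 8.22 and 7.92 and the knockdown arrays 9.02 and 9.26. That is a change of 1.07, or 2.10-fold (95% interval 1.66 to 2.65, limma adjusted p = 0.00499 over all probe sets). Probe set 1452741_PM_s_at read 7.02 and 6.91 in scramble and 7.91 and 8.23 in knockdown, a change of 1.10, or 2.15-fold (95% interval 1.73 to 2.67, adjusted p = 0.00351 by limma). Both kept their call in all 10 alternatives run on single probe sets. The suffix s marks probes shared by several transcripts. The fourth probe set, 1428324_PM_at, was above background on 1 array. Averaged over its 4 probe sets, Gpd2 had a log2 fold change of 0.55 and was called (adjusted p = 0.0126), so the call for this gene depended on which probe sets stood for it.

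Aqp7, the glycerol channel gene, read 4.93 and 4.41 in scramble and 3.93 and 4.23 in knockdown at 1418849_PM_x_at. This probe set also carries the suffix x, so its probes can bind other transcripts. The groups did not overlap but the scramble replicates lay well apart, and the log2 fold change of -0.59 (SE 0.19) was not called, with an adjusted p of 0.0716 by limma. It was called after quantile normalization (-0.68, adjusted p = 0.0447) and without scramble replicate 2 (-0.85, adjusted p = 0.015). Without scramble replicate 1 it shrank to -0.33 (adjusted p = 0.189), and the mean of both probe sets gave -0.29 (0.279). The other Aqp7 probe set, 1418848_PM_at, read 4.07 and 3.81 in scramble and 3.78 and 4.14 in knockdown, with overlapping groups and a change of 0.02.

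The probe set paired with Pck1 read 1.71 and 1.55 in scramble and 1.52 on both knockdown arrays, not above background on any array. Its log2 fold change of -0.11, which is plotted with the others, is therefore no measure of the gene. In the annotation used here 15588 probe sets carry no symbol, and 11.3% of them were called by limma over all probe sets. Any of them that read Pck1, Gk or Pnpla2 were not used, so strong changes of these genes could be missed here. Alb, the hepatocyte albumin gene, read 6.28 and 5.70 in scramble and 4.43 and 2.50 in knockdown, and 14 of the 17 hepatocyte markers were above background on each scramble array against 12 and 8 on the knockdown arrays. Liver also expresses Gpd1, Gk and Pck1, and the part of these markers in the member values was not tested.

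**Figure D3:**
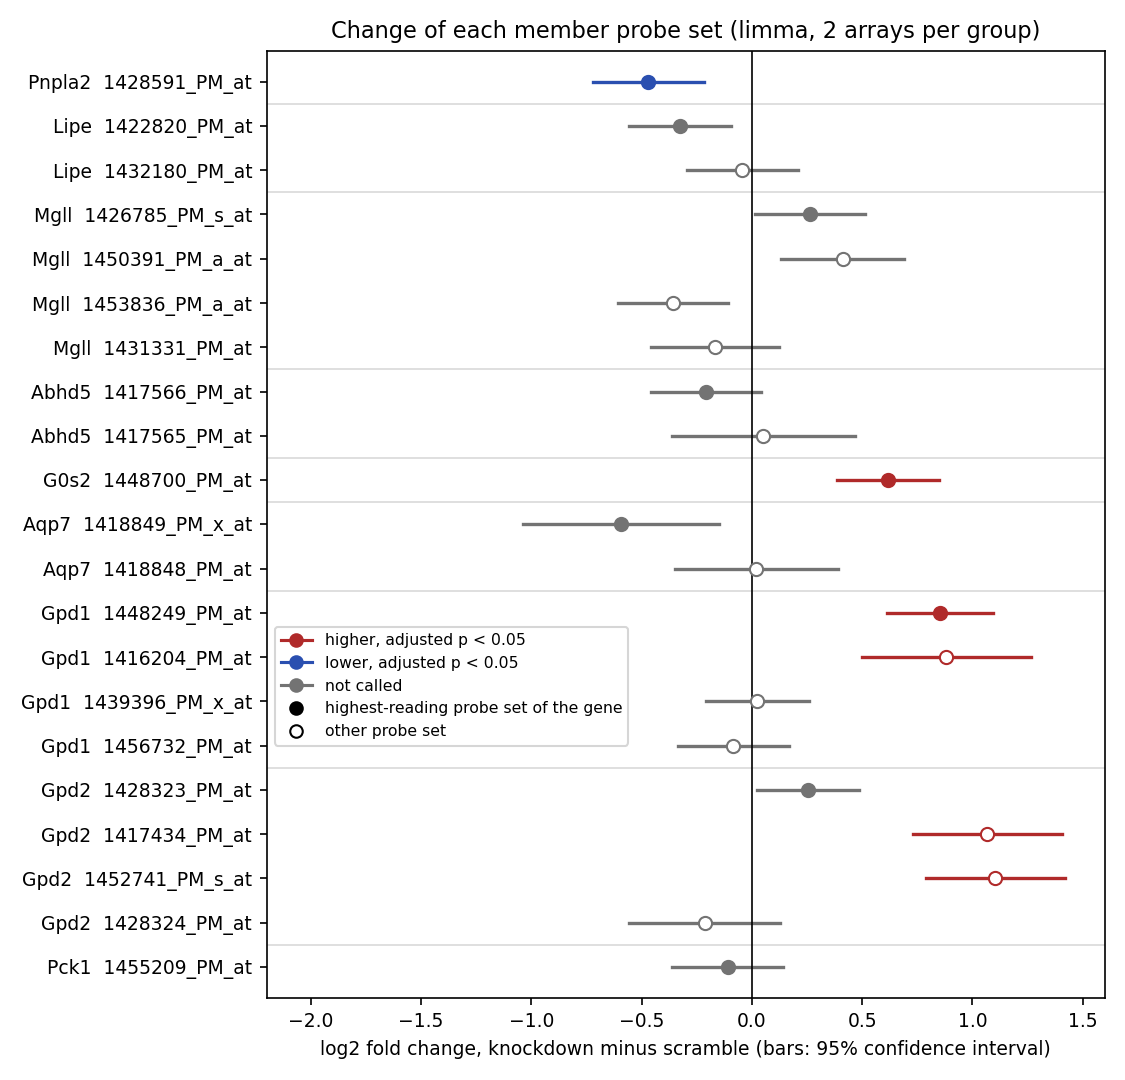
Points give the log2 fold change of each of the 21 member probe sets, knockdown minus scramble, and bars its 95% confidence interval from limma with 2 arrays per group. Filled points are each gene's probe set of highest mean; 5 probe sets (1 of G0s2, 2 of Gpd1 and 2 of Gpd2) were called higher and 1 (Pnpla2) lower when adjusted over all probe sets.

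Over all 21 member probe sets, 17 were above background on all 4 arrays and 3 on none. Tested one by one, 5 were higher and 1 was lower in knockdown, where 14.1% of all probe sets were called (8.73% higher and 5.38% lower). The higher ones were those of G0s2, 2 of Gpd1 and 2 of Gpd2. Groups did not overlap for 15 of the 21, and for 58.9% of all probe sets.

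Whether 2 probe sets of a gene changed by different amounts was tested directly on their difference within each array. Of 12 such member pairs, each the probe set of highest mean against another of the same gene, 6 passed a limma adjusted p of 0.05, where 12.5% of 11801 pairs over all genes did. The 12 pairs come from 6 genes, and pairs of 1 gene share its probe set of highest mean, so they are not independent. Among the 9 member pairs above background on every array 5 passed, where 16.5% of all such pairs did. Adjusted over pairs above background, Gpd2 gave 2 of these 5: 1428323_PM_at changed less than 1417434_PM_at by 0.81 (SE 0.17, limma adjusted p = 0.0257) and less than 1452741_PM_s_at by 0.85 (adjusted p = 0.0204). The others were Mgll, whose probe sets 1426785_PM_s_at and 1453836_PM_a_at differed by 0.62 (limma adjusted p = 0.0226), Aqp7 by -0.61 (0.0349) and Gpd1 against its x probe set by 0.83 (0.0113). The 2 called Gpd1 probe sets differed in change by -0.03 (SE 0.21), which did not pass. With knockdown replicate 2 left out 0 of the 12 pairs passed, without knockdown replicate 1 there was 1, and without scramble replicate 2 there were 3. The same 3′ minus 5′ log2 difference for Gapdh was 0.09 and 0.04 in scramble and 0.34 and 0.40 in knockdown. Its part in the differences between probe sets was not tested.

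**Figure D4:**
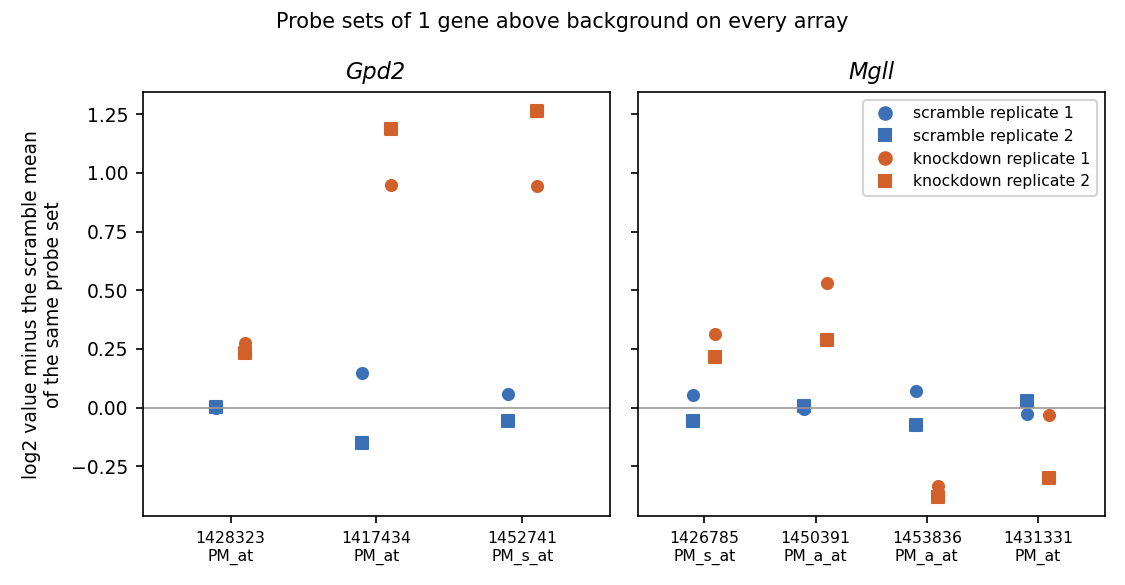
For the probe sets of Gpd2 (left) and Mgll (right) that were above background on every array, each point is the log2 value of 1 array minus the scramble mean of that probe set (blue, scramble; orange, knockdown; circles, replicate 1; squares, replicate 2). Knockdown arrays sit about 0.25 above the scramble mean at the first Gpd2 probe set and about 1.1 above it at the others, and at Mgll they lie above it for the first and second probe sets and below it for the third.

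Other genes that control lipolysis were described from a list of 48, of which 38 were measured and 33 were above background on all arrays. Knockdown arrays gave higher values for 6 and lower values for 2, leaving 30 without a call, beside 11.4% higher and 7.18% lower among all genes. Among genes above background on all 4 arrays, 24.7% were called in either direction. The list's median log2 fold change was 0.05, against -0.04 for all genes. Prkg1, the cGMP-dependent kinase that natriuretic peptides act through, read 4.75 and 4.49 in scramble and 5.60 and 5.69 in knockdown, a 2.04-fold rise (limma adjusted p = 0.00263). The protein kinase A regulatory subunit genes Prkar1a and Prkar2b rose 1.44-fold and 1.32-fold. Gnai1 and Gnai2, which encode G protein subunits that inhibit adenylate cyclase, rose 1.43-fold and 1.41-fold. Abhd15, which encodes a partner of the phosphodiesterase Pde3b, rose 1.66-fold. Adjusted p-values of these 5 lay between 0.0165 and 0.0418 by limma. Abhd15 was not called after quantile normalization (adjusted p = 0.0806) or when its probe sets were averaged (log2 fold change 0.35 in place of 0.73, adjusted p = 0.103). Prkar2b was not called after quantile normalization (adjusted p = 0.0583). Averaging kept the calls of the others but moved the log2 fold change of Prkg1 from 1.03 to 0.68, of Prkar1a from 0.52 to 0.35, of Gnai1 from 0.51 to 0.79 and of Gnai2 from 0.50 to 0.92.

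The fallen genes of that list encode lipid droplet proteins that bind adipose triglyceride lipase. Plin5 read 7.69 and 7.53 in scramble and 6.70 and 6.95 in knockdown, a 1.73-fold fall (limma adjusted p = 0.00729). Hilpda, an inhibitor of the lipase like G0s2, fell 1.35-fold, from 4.85 and 4.95 to 4.48 and 4.45 (limma adjusted p = 0.0284), while G0s2 rose. Pde3b, the phosphodiesterase through which insulin restrains lipolysis, had a log2 fold change of 0.08 (adjusted p = 0.609), and the lipase gene Pnpla3 one of 0.10 (adjusted p = 0.524) that turned to -0.025 after quantile normalization. Plin1 and Adrb3 carry no named probe set and were not analysed here. Prkg1 was called with any 1 array left out. Plin5 was not called without knockdown replicate 1 (adjusted p = 0.0516), and the other 6 were not called without either knockdown replicate. Prkar1a (log2 fold change 0.51) and Prkar2b (0.36) were also not called without scramble replicate 1. Nor were Hilpda (-0.38), Abhd15 (0.45), Gnai1 (0.45) and Prkar2b (0.43) without scramble replicate 2. In place of 8 genes, 1 was called without knockdown replicate 1, 2 without knockdown replicate 2 and 4 without scramble replicate 2.

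Among 28 other genes of glycerol phosphate metabolism and glyceroneogenesis, 25 were measured. On the knockdown arrays 3 were higher and 3 lower, while 19 had no call, beside 18.5% called among all genes and 24.7% among those above background on every array, which 24 of these 25 are. The values lay around a median log2 fold change of -0.06. Gpat3, which attaches the first fatty acid to glycerol 3-phosphate, read 4.21 and 4.47 in scramble and 6.45 and 6.51 in knockdown. That is a 4.41-fold rise (limma adjusted p = 0.000328), called in all 11 alternatives. Gpam, the mitochondrial enzyme gene of the same step, had a log2 fold change of -0.11 (adjusted p = 0.494), which turned to 0.094 when its probe sets were averaged.

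The mitochondrial carrier genes Slc25a10 (dicarboxylates) and Slc25a12 (aspartate and glutamate) rose 1.70-fold and 1.38-fold, with limma adjusted p-values of 0.00815 and 0.0351. When all probe sets of a gene were averaged neither was called, at log2 fold changes of 0.28 and 0.15. Quantile normalization left Slc25a12 at an adjusted p of 0.0501, not called. Slc25a10 was not called without knockdown replicate 1 (adjusted p = 0.0583), nor Slc25a12 without any 1 of the arrays (0.0633 to 0.211). Pdk4, whose product blocks pyruvate oxidation, read 9.36 and 9.46 in scramble and 7.55 and 7.65 in knockdown, a 3.52-fold fall (limma adjusted p = 0.000333). Ldhb, a lactate dehydrogenase subunit gene, fell 1.79-fold and Agk, a mitochondrial acylglycerol kinase gene, fell 1.51-fold (limma adjusted p = 0.00263 and 0.0229). Averaging the probe sets of Agk gave -0.32 (adjusted p = 0.0573), and Agk was not called without scramble replicate 2 (adjusted p = 0.0579) or knockdown replicate 2 (0.144). The glycerol channel genes Aqp3 and Aqp9 had changes of -0.28 and -0.33 and Pck2, the mitochondrial counterpart of Pck1, one of -0.05, none of them called.

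The genes whose values followed Gpd1 most closely over the 4 arrays, each gene centred on its own mean, were Omd, AI987944 and Ank, at Euclidean distances of 0.03, 0.04 and 0.05 log2 units among 12678 genes compared. For Pnpla2 they were Ago3, Ddx11 and Fam98c, each at 0.02. All share the same 4 arrays, and with so few points many genes lie near any pattern.

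**Figure D5:**
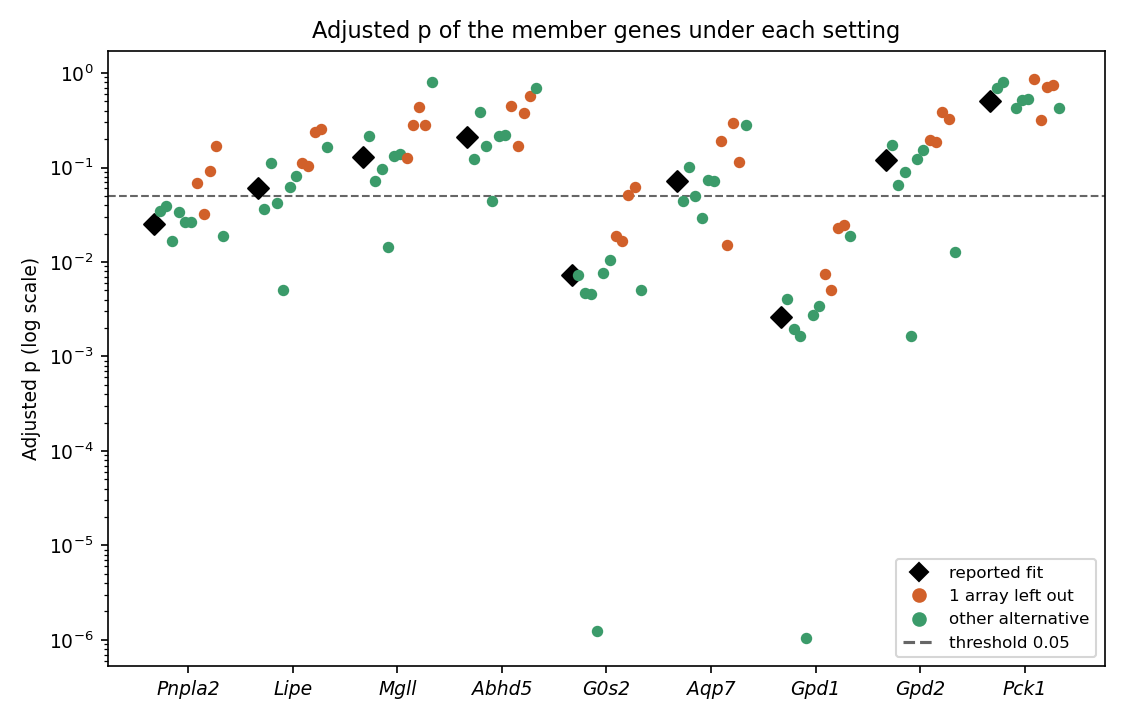
Each point is the limma adjusted p of a member gene on a log scale, as reported (black diamond), with 1 array left out (orange) or under another alternative (green), and the dashed line marks 0.05. Gpd1 stays below the line throughout, G0s2 crosses it in 2 and Pnpla2 in 3 of the cases with 1 array left out, and Lipe, Mgll, Abhd5, Aqp7 and Gpd2 lie above it as reported and below it under at least 1 alternative.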

How the data were processed

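The deposited table gives 1 log2 expression value per probe set and array, made by the authors. Per the submitters' processing notes, RMA, affy and limma belong to the authors' processing, with no role, version or order given, and the exact normalization and genome build are not given in the sources used here. Symbols came from the platform annotation, and those of the 9 measured members matched the RefSeq gene table by Entrez ID. Of 45141 probe sets, 104 were controls, and 28898 of the others carry exactly 1 symbol.

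All 45037 probe sets were fitted by lmFit and eBayes of limma 3.58.1 (R 4.3.3) in a two-sided test with no term but the group, adjusted by Benjamini-Hochberg over 17097 genes, each read by its probe set of highest mean, or over all probe sets. Residual degrees of freedom were 2 and prior ones 4.93. The difference between probe sets of a gene was fitted the same way. A permutation test of 2 against 2 arrays cannot go below p = 0.333 and was not used. The number of arrays limits the precision. The fits were tested on simulated data with 200 changed genes or pairs. The gene fit recovered 54.3% of changes of 0.5 log2 units and 99.7% of changes of 1. Of its calls 6.83% were false. The fit of probe set pairs recovered 20.6% and 97.6%, and 7.52% of its calls were false. The simulations held far fewer changed genes or pairs than were called in the data (3169 and 1477), so these rates may differ there.

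The members and lists were chosen with earlier results of these data known. Named genes are all members, called genes of both pathway lists (up to 6 in each direction), Plin1, Adrb3, Pde3b, Pnpla3, Gpam, Aqp3, Aqp9 and Pck2, and the 3 nearest patterns to the largest called rise and fall. Alternatives were quantile normalization, median centring, a filter on the dimmest 40 percent of genes, a variance trend or robust fitting in eBayes, the mean of a gene's probe sets, the replicate number as a block, pairs above background, and each array left out. A lone remaining array was taken to vary as much as the other group's arrays. Plots were drawn with matplotlib 3.10.9.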

Additional observations from a re-analysis of the deposited data

How the results depend on the processing

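Single member genes kept their direction in all 98 values under alternatives, and 83 of these also kept their side of the threshold, while 5 lost a call and 10 gained one. In many of these values the direction could not turn. The filter on dim genes, the variance trend, robust fitting and the replicate block leave the log2 fold change as it is. Where groups do not overlap, leaving out 1 array cannot turn its sign. With eBayes and a variance trend, 4 member genes were higher and 4 lower (8 and 4 probe sets), and 13 other lipolysis control genes were called. That setting also called more of all 17097 genes, with 2570 higher and 1800 lower in place of 1941 and 1228. Quantile normalization gave 3 lower member genes and 3 lower probe sets, and leaving out the dimmest 40 percent gave 2 and 3. With 1 array left out, higher member genes numbered 1 to 2, lower ones 0 to 2, higher probe sets 3 to 5, lower probe sets 0 to 2, called lipolysis control genes 1 to 7, member pairs that disagreed 0 to 4, and all called genes 1050 to 2841 in place of 3169. Without scramble replicate 2, 2 member genes were lower. Over all genes, quantile normalization gave 1514 higher and 1564 lower and median centring 2383 and 844, in place of 1941 and 1228.

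Signs turned for probe sets and genes that were not called. Quantile normalization gave 0.026 for Lipe 1432180_PM_at, -0.0018 for Abhd5 1417565_PM_at, -0.032 for Aqp7 1418848_PM_at, -0.054 for Gpd1 1439396_PM_x_at and -0.025 for Pnpla3. Median centring gave 0.020 for Lipe 1432180_PM_at and 0.012 for Pck2, and the mean of all probe sets gave 0.094 for Gpam. With 1 array left out, Lipe 1432180_PM_at ran from -0.11 to 0.025, Abhd5 1417565_PM_at from -0.15 to 0.25 and Aqp7 1418848_PM_at from -0.16 to 0.20. The causes were not tested.

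The replicate numbers are not said to pair samples, and deviations from the group means of the arrays numbered 1 correlated at r = 0.04 across probe sets. With the replicate block 2 member genes were higher and 1 lower, with 5 and 1 probe sets, 6 pairs disagreed and 3179 genes were called, which left each of these member counts as reported. Readings near background, as for Pnpla2, limit how much of a change could be seen, and Pck1 and other dim probe sets gave no value where the dimmest were left out.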
